A study of Rattus norvegicus with 40 samples.

Results

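The urea cycle genes Cps1, Otc, Ass1, Asl, Arg1, Nags and Slc25a15 were followed across all the livers of a rat study on rapamycin. They were taken by name: each array row whose platform annotation holds 1 gene symbol, that of a member, was kept. All 7 were on the array with 1 row each, out of 14497 genes with a row of their own, and all 7 passed the filter on low values. The rule uses names alone, but these genes were chosen with earlier results of these data known.

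The study measured liver RNA of Sprague Dawley rats on 40 Affymetrix Rat Gene 1.0 ST arrays. Each numbered replicate of a model and treatment was taken as 1 liver, 20 in all. Each had an array of polysome RNA, the mRNA bound by several ribosomes, and an array of total RNA. The titles give replicate numbers only and do not state that both arrays came from 1 liver. The rats received rapamycin, an inhibitor of the growth kinase mTOR complex 1, or its solvent DMSO. Refed adults (125 to 150 g) had fasted for 48 h, were injected, and from 1 h later ate freely for 3 h before the liver was taken (n = 3 per treatment). Hepatectomy adults of that weight were injected 1 h before a partial hepatectomy, which resects most lobes, and the remnant was collected 24 h after surgery (n = 3 per treatment). Fetuses were injected on gestation day 19 and their livers taken on day 20 (n = 4 per treatment). Adults received 250 µg of rapamycin per 100 g and each fetus 50 µg. Fetal, refed and regenerating livers therefore differed at once in age, feeding, surgery and time after injection, which cannot be told apart. Replicates are labelled biological, yet the protocol pooled polysome preparations in a way it does not detail, so p-values may in part measure technical spread. The time field of the hepatectomy polysome DMSO arrays names refeeding, while their titles name hepatectomy, and the titles were used.

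The urea cycle turns ammonia, released when amino acids are broken down, into urea, and in mammals the whole cycle runs chiefly in hepatocytes around the portal vein. Nags makes N-acetylglutamate, the obligatory activator of Cps1, which joins ammonia and bicarbonate into carbamoyl phosphate inside the mitochondrion, and Otc passes the carbamoyl group to ornithine to give citrulline. Slc25a15 exchanges citrulline for ornithine across the inner mitochondrial membrane. In the cytosol Ass1 condenses citrulline with aspartate, Asl splits argininosuccinate into arginine and fumarate, and Arg1 cleaves arginine to urea and ornithine. The genes are known to be switched on before birth and to follow protein intake, glucagon and glucocorticoids.

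The stretches just before the gene starts are shown for Cps1, called in no comparison of fetal with refed livers, for Asl, which differed most there, and for Nags, the member called with rapamycin. They are RefSeq sequence of the rat build GRCr8, 250 bases ending at the base before the annotated start, read 5′ to 3′ on the gene's strand (the plus strand in all 3). The Cps1 window is chr9:76063613-76063862, that of Asl chr12:32295658-32295907 and that of Nags chr10:87598266-87598515. Capitals mark matches to any of 8 short motifs searched on both strands: TATAAA as a TATA box, CCAAT as its own box, GGGCGG as a GC box, TTGCNNAA for C/EBP factors, CAAAGT for HNF4, GTTAAT for HNF1, TGTTCT for the glucocorticoid receptor and TGACGT for CREB.
Cps1: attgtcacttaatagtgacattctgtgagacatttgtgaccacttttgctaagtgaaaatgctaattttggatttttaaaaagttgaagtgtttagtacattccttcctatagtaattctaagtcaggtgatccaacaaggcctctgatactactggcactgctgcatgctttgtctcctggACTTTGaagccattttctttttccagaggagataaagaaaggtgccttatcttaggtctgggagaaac
Asl: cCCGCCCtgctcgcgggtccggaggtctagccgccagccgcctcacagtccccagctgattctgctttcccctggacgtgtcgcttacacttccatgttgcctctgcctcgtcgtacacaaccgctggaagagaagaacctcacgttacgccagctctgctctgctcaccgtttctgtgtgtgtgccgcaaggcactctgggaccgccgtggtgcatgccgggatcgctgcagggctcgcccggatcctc
Nags: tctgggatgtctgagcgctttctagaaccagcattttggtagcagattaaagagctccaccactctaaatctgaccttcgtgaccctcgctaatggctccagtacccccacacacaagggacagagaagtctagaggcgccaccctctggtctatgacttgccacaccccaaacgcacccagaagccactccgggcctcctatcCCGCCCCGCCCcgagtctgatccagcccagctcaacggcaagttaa
The Cps1 window had 38.0% G and C and 0 CpG pairs, and its capitals are CAAAGT on the reverse strand, 68 to 63 bases before the start. Asl was at the other end, with 64.0% G and C and 21 CpG pairs, and its capitals are GGGCGG on the reverse strand. Nags had 56.4% G and C, 10 CpG pairs and 2 adjoining reverse-strand copies of GGGCGG that share a base. Among all 27457 windows of this length the median was 52.0% G and C with 6 CpG pairs, CAAAGT was found in 12.8% and GGGCGG in 32.4%. RefSeq windows were at hand for 6 members, all but Arg1. Otc (44.4% G and C) held none of the 8 motifs, Ass1 (51.2%) held TATAAA, found in 13.1% of windows, and Slc25a15 (48.8%) held CCAAT, found in 34.3%. The letters for C/EBP, HNF1, the glucocorticoid receptor and CREB, found in 9.2%, 6.46%, 17.1% and 7.25% of windows, matched no member window. A match is only a match of letters.

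Values below are log2 of the authors' RMA intensity, differences are log2 differences with the standard error (SE) of a limma fit, and a gene is called where its Benjamini-Hochberg adjusted p over 10860 tested rows was under 0.05. No probe set's level is compared with another's. Hepatocyte markers, averaged over 12 genes, lay close together in total RNA of DMSO livers, from 13.91 to 13.95 in refed, 13.94 to 13.98 in hepatectomy and 13.76 to 13.89 in fetal livers. Fetal livers also held blood-forming cells. The mean of the 8 erythroid genes on the array was 11.86 to 12.70 in them against 6.67 to 7.12 in refed and 7.20 to 7.51 in hepatectomy livers, and all 8 were higher in fetal than in refed livers. The 8 granulocyte and mast cell genes averaged 9.41 to 9.82 against 6.03 to 6.38 and 6.19 to 6.33. In such bulk RNA, fewer cells of a type and less RNA per cell cannot be told apart.

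2 sets of libraries stood apart before any comparison. In all 4 fetal groups, arrays numbered 1 and 2 deviated from their group mean in one direction and those numbered 3 and 4 in the other: the first principal component of the fetal deviations carried 56.4% of their variance and separated all 8 arrays of the former from all 8 of the latter. The erythroid mean was 12.47 to 12.70 in fetal numbers 1 and 2 and 11.64 to 12.08 in 3 and 4, the amino acid breakdown genes averaged 10.40 to 10.60 and 11.04 to 11.47, and hepatocyte markers 13.57 to 13.80 and 13.76 to 13.89. The labels do not say what the numbers stand for, so the part of litter, stage or preparation in this was not tested. Refed DMSO liver 3 held the lowest of its group's values for 7 of 7 members in polysome RNA and 6 of 7 in total RNA. The share of all rows lowest in that liver was not counted, so these counts describe the members only. In it the amino acid breakdown genes averaged 11.81 and 11.49 in polysome and total RNA, against 12.15 to 12.19 and 12.06 to 12.09 in its group mates, and hepatocyte markers 13.84 and 13.91 against 13.78 to 13.81 and 13.94 to 13.95. Results are given with and without these livers where a call changed. Both sets were picked from these same data, so p-values of fits that leave them out are descriptive only.

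Fetal livers carried the cytosolic steps Ass1, Asl and Arg1 at a lower level than refed adults in all 4 comparisons and Nags in 3 of them, while Cps1, Otc and Slc25a15 were called in none. In DMSO livers Ass1, Asl, Arg1 and Nags were lower in fetal polysome RNA (4 of 7 members, all down) and Ass1, Asl and Arg1 in fetal total RNA (3 of 7, all down). With rapamycin in both models all 4 were lower in either fraction. Of all rows tested, 50.6% and 47.1% were called in polysome and total RNA of DMSO livers, and 51.4% and 45.8% in rapamycin livers, so the count of members was near the background. By direction, no member was called higher, and of all rows 23.6%, 28.1%, 23.8% and 24.6% were called higher and 27%, 19%, 27.6% and 21.1% lower (polysome and total RNA of DMSO livers, then of rapamycin livers). The median member difference was -0.35 in polysome and -0.28 in total RNA of DMSO livers, against -0.05 and 0.04 over all rows tested.

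Asl, which releases arginine, was furthest down. In total RNA of DMSO livers it stood at 12.60, 12.73 and 12.01 in the refed adults and at 9.92, 10.02, 11.65 and 11.39 in the fetuses. The 2 ranges did not overlap, nor did those of 39.4% of all rows. The fetuses were themselves in a low and a high pair, numbers 1 and 2 against 3 and 4. The difference was -1.70 (SE 0.34, adjusted p = 0.000104 by limma), which is 3.25-fold, and in polysome RNA it was -1.66 (SE 0.34, adjusted p = 0.000127). Rapamycin livers gave -2.08 in total and -1.87 in polysome RNA. The call held in each pair of fetal livers taken alone, with -2.47 in total RNA for numbers 1 and 2 and -0.93 for numbers 3 and 4, so both pairs lay below the adults.

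Arg1, the urea-releasing step, was the next furthest down in total RNA. The refed DMSO livers had 12.59, 12.72 and 11.98 and the fetal ones 10.98, 10.71, 11.41 and 11.46, again without overlap, like 39.4% of all rows. The difference was -1.29 (SE 0.26, adjusted p = 0.000111), or 2.45-fold. Polysome RNA gave a smaller one, -0.76 (SE 0.26, adjusted p = 0.0153), from 13.02, 12.95 and 12.56 against 11.96, 11.85, 12.14 and 12.41. Ass1, which uses aspartate to bring in the second nitrogen, differed little: 14.01, 14.16 and 13.86 in refed against 13.61, 13.65, 13.86 and 13.82 in fetal total RNA, where the lowest adult and the highest fetus met at 13.86 to 2 decimals, a difference of -0.28 (SE 0.111, adjusted p = 0.04). In polysome RNA it was -0.35 (adjusted p = 0.00926).

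Nags, which makes the activator of Cps1, was lower in fetal polysome RNA (difference -0.77, SE 0.223, adjusted p = 0.00454). Its refed values of 11.96, 12.01 and 11.08 overlapped the fetal 10.56, 10.96, 11.04 and 11.08 only through refed liver 3. In total RNA the refed values were 11.65, 11.68 and 10.53, the fetal ones 10.58, 10.66, 11.11 and 10.89, and the difference of -0.48 was not called (adjusted p = 0.0782). Without refed liver 3 in both fractions it was -0.85 (adjusted p = 0.000299). That liver was set apart for its low values, so leaving it out widened the difference, and this p-value is descriptive only. Cps1, the entry step, stood at 14.09, 13.90 and 13.93 in refed and 13.72, 13.78, 13.80 and 13.74 in fetal total RNA. The fetal arrays lay just below the refed ones, and the difference of -0.21 (95% interval -0.45 to 0.03) was not called. In polysome RNA it was 0.18 (-0.07 to 0.42), the opposite sign. Otc differed by 0.10 (-0.24 to 0.44) in total and -0.33 (-0.67 to 0.01) in polysome RNA, neither called. Without refed liver 3 its polysome value was -0.41 with an adjusted p of 0.0494, likewise descriptive only.

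Slc25a15, the carrier, was not called on all livers, but in total RNA of DMSO livers its fetal pairs lay on opposite sides of the refed livers. Its refed DMSO values in total RNA were 12.14, 12.10 and 11.35, and fetal numbers 1 to 4 had 11.30, 11.18, 12.29 and 12.28. Numbers 1 and 2 lay below every refed liver and 3 and 4 above, for a difference of -0.10 (-0.74 to 0.54) over all 4. In polysome RNA of DMSO livers number 3, at 12.12, was inside the refed range of 11.51 to 12.30. With rapamycin numbers 3 and 4, at 12.43 and 12.37, were inside the refed polysome range of 12.02 to 12.46. With numbers 1 and 2 alone Slc25a15 was lower in all 4 comparisons with refed livers, at -0.63 in total and -0.74 in polysome RNA of DMSO livers (adjusted p = 0.033 and 0.0112) and -0.67 and -0.80 in rapamycin livers (adjusted p = 0.0228 and 0.00657). With 3 and 4 alone the same differences were 0.42, 0.27, 0.11 and 0.15, none of them called. The pairs were picked from these data and Slc25a15 itself splits along them. The p-values for 1 pair alone are therefore descriptive and no independent support.

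Several of these calls were narrow. In total RNA of DMSO livers that of Ass1 was lost without fetal array 1 or 2 or refed array 1 or 2 (adjusted p 0.0808 to 0.188) and with no filter on low values, no intensity trend or the compared arrays alone (0.0509 to 0.0655), and that of Nags appeared without fetal array 3 (adjusted p = 0.0471) or refed array 3 (0.00158). In polysome RNA of DMSO livers Ass1 was lost without fetal array 1 (0.0535) and Arg1 without refed array 1 (0.0654) or 2 (0.0547). In rapamycin polysome RNA Arg1 was lost without fetal array 2 (0.0728) or refed array 3 (0.0596). Fetal livers 3 and 4 alone gave no call for Ass1 in DMSO polysome (-0.22, adjusted p = 0.133) or total RNA (-0.17, 0.233), nor for Arg1 in rapamycin polysome RNA (-0.34, 0.186). Scaling the arrays by cyclic loess in place of the deposited scaling removed the polysome call of Ass1 (-0.11, adjusted p = 0.427) and made Cps1 higher in fetal polysome RNA (0.42, adjusted p = 0.01), and in rapamycin livers also (0.34, adjusted p = 0.0338), so these polysome results depended on the scaling. It also gave Nags a call in total RNA of DMSO livers (-0.56, adjusted p = 0.0281), as did the liver as a random block (-0.48, 0.0459).

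**Figure D1:**
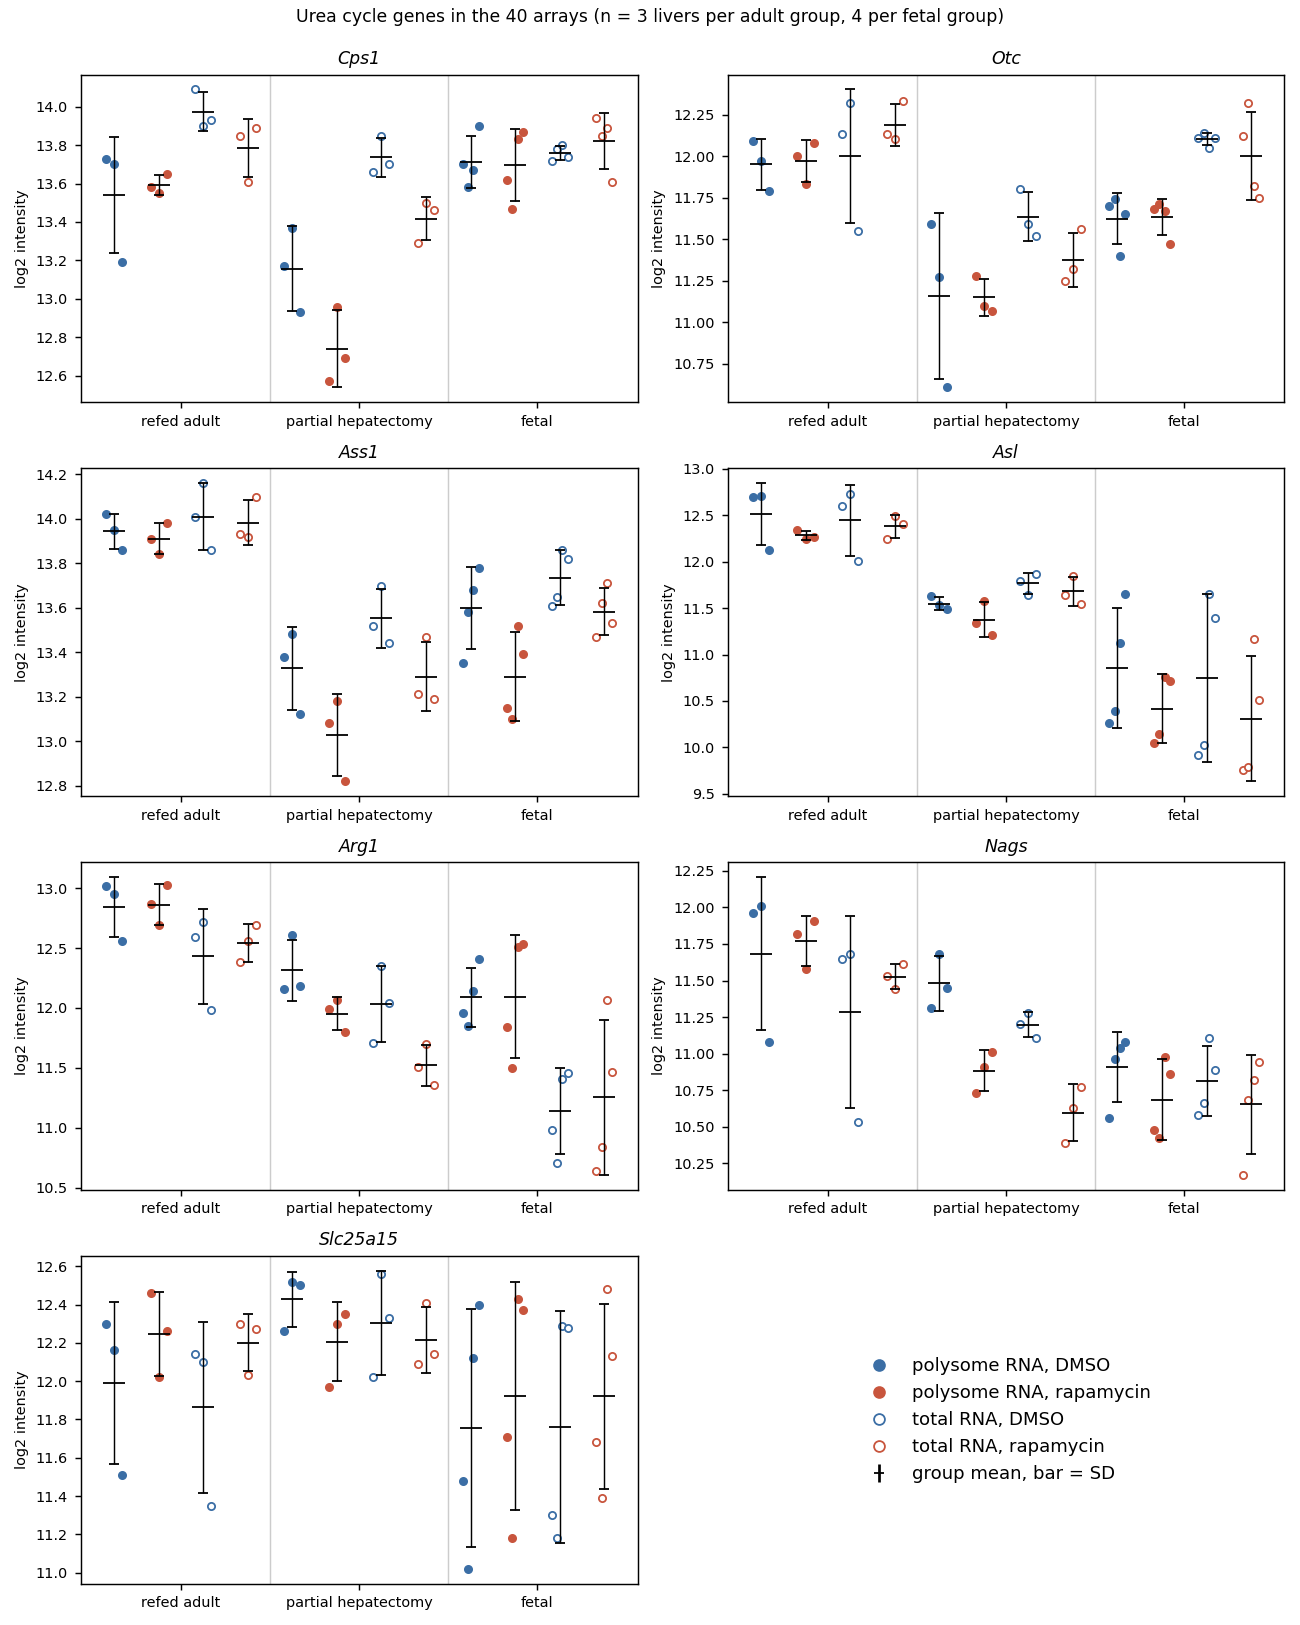
Log2 intensity (y axis) of each member in every array, by model along the x axis, with polysome RNA as filled and total RNA as open points, DMSO in blue and rapamycin in red, and bars for the group mean and SD (n = 3 livers per adult group, 4 per fetal group). Asl lies between 12.01 and 12.73 in all refed arrays and between 9.76 and 11.65 in all fetal arrays, in which it splits into a low and a high pair, while Cps1 overlaps across refed and fetal livers.

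**Figure D2:**
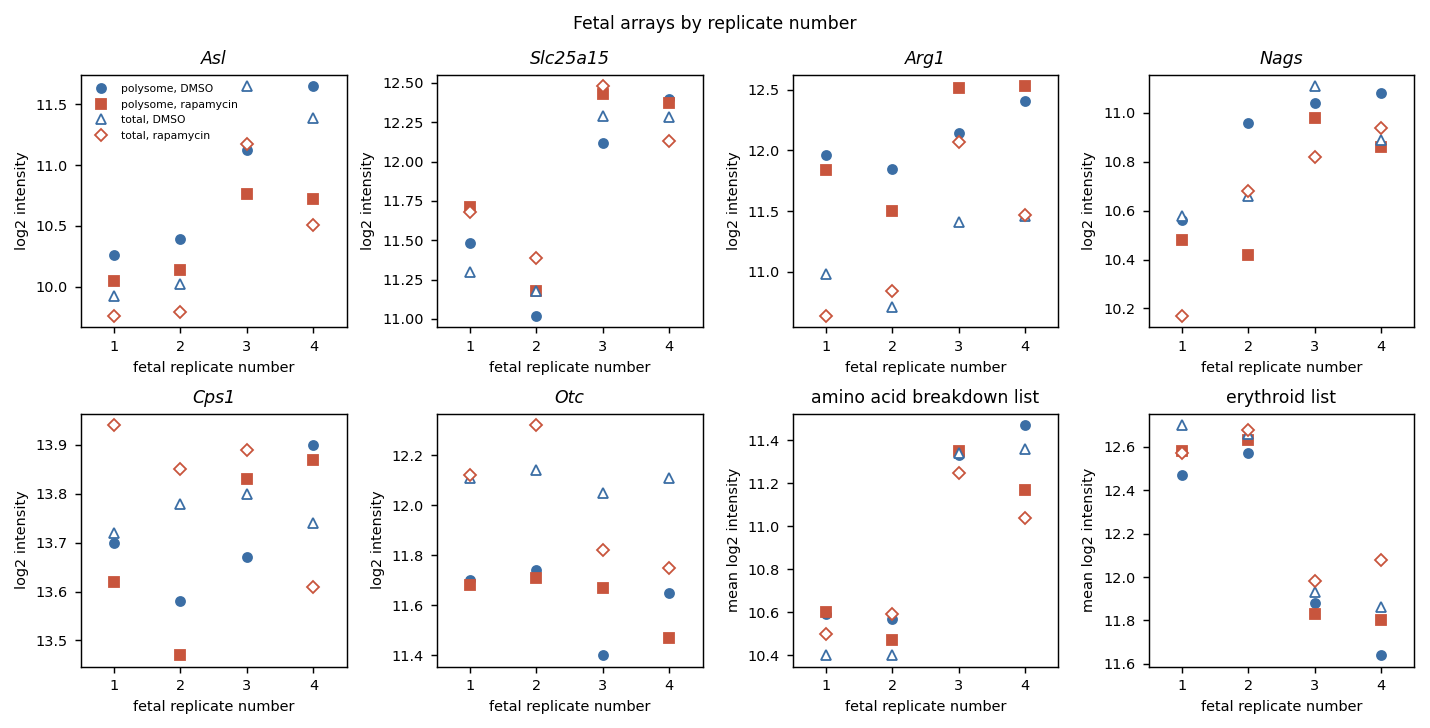
Fetal arrays by replicate number (x axis), with log2 intensity of 6 members and the mean log2 intensity of the amino acid breakdown and erythroid lists (y axes); blue is DMSO, red rapamycin, filled polysome, open total RNA. Numbers 3 and 4 lie above 1 and 2 in all 4 groups for Asl, Slc25a15, Arg1 and Nags, while the erythroid mean runs the other way, 11.64 to 12.08 against 12.47 to 12.70.

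Within the fetal groups the members followed the split to different degrees. Asl, Arg1, Nags and Slc25a15 were higher in both numbers 3 and 4 than in both 1 and 2 in 4 of 4 groups, Ass1 in 3, Cps1 in 1 and Otc in 0. Asl ranged from 9.76 to 10.39 in numbers 1 and 2 and from 10.51 to 11.65 in 3 and 4 over the 4 groups, and Slc25a15 from 11.02 to 11.71 and from 12.12 to 12.48. Cps1 covered 13.47 to 13.94 and 13.61 to 13.90, and Otc 11.68 to 12.32 and 11.40 to 12.11, so both overlapped. Perivenous markers averaged 7.59 to 8.20 and 8.10 to 8.40, and the 5 periportal genes outside the cycle 8.91 to 9.20 and 9.76 to 10.75. These pairs were noticed in the data and no test was made between them. The share of all rows that separated in the same way was not counted, so the counts describe the members only.

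Genes around the cycle were counted against the same background, 47.1% of all rows called in total and 50.6% in polysome RNA of DMSO livers. Of 27 tested amino acid breakdown genes, 11 were lower and 2 higher in fetal total RNA of DMSO livers (median -0.34), and 15 were lower and 1 higher in polysome RNA (median -0.55), against 19% and 27% of all rows called lower. Of all rows 28.1% in total and 23.6% in polysome RNA were called higher. With both directions counted together the share called was near that of all rows, but most of the called breakdown genes were lower. Tdo2, the first enzyme of tryptophan breakdown, differed by -7.38 in total RNA (SE 0.373, adjusted p = 3.56e-17), and Tat, which transaminates tyrosine, by -5.44 (SE 0.747, adjusted p = 3.09e-07). Aass of lysine breakdown differed by -1.88 and Prodh, proline dehydrogenase, by -3.17. The 20 genes tested of ammonia, ornithine and aspartate supply had 6 higher and 5 lower in total RNA, also near the share of all rows. Among them Slc38a5, a glutamine transporter, was higher by 4.08 (SE 0.271, adjusted p = 3.64e-14), Aldh18a1 of ornithine and proline synthesis by 1.24, the glycerol and urea channel Aqp9 by 1.08 and Got2, the mitochondrial aspartate aminotransferase, by 0.39. Of 12 regulators 3 were lower in fetal total RNA and none higher, a smaller share than that of all rows: the hepatocyte factor Hnf4a (-0.92, SE 0.139, adjusted p = 1.61e-06), Foxa2 (-0.57) and the glucagon receptor Gcgr (-0.68). The part of the blood-forming cells in these differences was not tested.

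Against regenerating adult liver the share of members called was near that of all rows. The first 3 enzymes of the chain, Cps1, Otc and Ass1, were higher in the fetus where they were called, and Asl, Arg1 or Nags lower. In DMSO livers 4 of 7 were called in polysome RNA (Cps1, Otc and Ass1 up, Nags down) and 3 of 7 in total RNA (Otc up, Asl and Arg1 down), with 50.2% and 36.9% of all rows called. Rapamycin livers gave 4 of 7 in each fraction, Cps1, Otc and Ass1 up and Asl down, against 53.3% in polysome and 45.3% in total RNA. In the order of DMSO polysome, rapamycin polysome, DMSO total and rapamycin total RNA, 23.5%, 26.2%, 19.9% and 26.2% of all rows were called higher and 26.7%, 27.1%, 17% and 19.1% lower. These comparisons share the fetal arrays with those against refed livers, so their values are given side by side and not as separate evidence.

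In polysome RNA of DMSO livers Cps1 was 13.17, 13.37 and 12.93 after hepatectomy and 13.70, 13.58, 13.67 and 13.90 in the fetus, apart in range like 52.5% of all rows. The difference was 0.56 (SE 0.119, adjusted p = 0.000225), and with rapamycin 0.96 (SE 0.119, adjusted p = 4.63e-08), from 12.57, 12.96 and 12.69 against 13.62, 13.47, 13.83 and 13.87. In total RNA it was 0.03 (-0.21 to 0.27), not called, in DMSO livers and 0.41 (adjusted p = 0.00565) in rapamycin livers. The same gene against refed livers had given 0.18 and 0.10 in polysome RNA.

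Otc was higher in the fetus in all 4 comparisons, by 0.47 and 0.48 in polysome and 0.46 and 0.62 in total RNA (DMSO, then rapamycin). In total RNA of DMSO livers it stood at 11.80, 11.59 and 11.52 after hepatectomy and 12.11, 12.14, 12.05 and 12.11 in the fetus (SE 0.167, adjusted p = 0.0275). Those ranges did not overlap, nor did those of 45.9% of all rows. Ass1 was higher by 0.27 and 0.26 in polysome RNA and 0.29 in total RNA of rapamycin livers, while 0.18 in total RNA of DMSO livers (-0.05 to 0.40) was not called. These Ass1 differences were small, with adjusted p from 0.0315 to 0.0456.

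Asl was lower in total RNA of DMSO livers (difference -1.02, SE 0.34, adjusted p = 0.0177): 11.79, 11.64 and 11.87 after hepatectomy against 9.92, 10.02, 11.65 and 11.39. Fetal numbers 1 and 2 lay well below and number 3 inside the adult range. The pairs gave -1.79 (adjusted p = 4.74e-09) for numbers 1 and 2 and -0.25 (0.369) for 3 and 4, so the call rested on the former. In rapamycin livers it was -1.37 in total RNA (adjusted p = 0.00136), with -0.84 (0.00173) for fetal numbers 3 and 4 alone. Arg1 was lower in total RNA of DMSO livers, at -0.89 (SE 0.26, adjusted p = 0.00665), and Nags in polysome RNA, at -0.57 (SE 0.223, adjusted p = 0.0338). Slc25a15 was not called, at -0.68 (adjusted p = 0.0717) in polysome and -0.55 (0.177) in total RNA of DMSO livers. Fetal numbers 1 and 2 alone gave it -1.18 (adjusted p = 0.000205) and -1.07 (0.000791), and in rapamycin livers -0.76 (0.0089) and -0.68 (0.022). Here too the p-values for 1 pair are descriptive only, since the pairs were picked from these data.

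Many of these calls were lost without 1 array. In DMSO polysome RNA the Otc call was lost without fetal array 2 (adjusted p = 0.0504) or hepatectomy array 3 (0.19, 0.361), that of Ass1 without any of 5 arrays (fetal 2, 3 and 4, hepatectomy 1 and 3; without the last 0.16, 0.293), and that of Nags without fetal array 1 (0.116) or hepatectomy array 2 (0.136) or 3 (0.067). Asl became called there without fetal array 4 (0.0219), and Slc25a15 without fetal array 3 (0.0476) or 4 (0.0229). In DMSO total RNA Otc was lost without fetal array 2 (0.0529) or hepatectomy array 2 (0.0789) or 3 (0.11), Asl without fetal array 1 (0.0925) or 2 (0.0839) or hepatectomy array 1 (0.0501) or 3 (0.0605), and Arg1 without hepatectomy array 2 (0.0545). In rapamycin polysome RNA Asl was lost without fetal array 1 (0.0551) or hepatectomy array 2 (0.0682), Otc without hepatectomy array 3 (0.0569), and Ass1 without any of 4 arrays (fetal 3 and 4, hepatectomy 1 and 3; without the last 0.16, 0.29). In rapamycin total RNA Ass1 was lost without any of 4 arrays (fetal 2 and 3, hepatectomy 1 and 3, up to 0.133). The Cps1 calls held without any 1 array.

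Taking apart the fetal pairs, which were picked from these data, changed further calls, and Arg1 in particular. With rapamycin it was higher in polysome RNA of fetal numbers 3 and 4 (0.56, adjusted p = 0.029) and lower in total RNA of numbers 1 and 2 (-0.79, 0.00277) than after hepatectomy. Numbers 3 and 4 alone gave no call for Otc in any of the 4 comparisons (0.37 to 0.44, adjusted p 0.0929 to 0.144), none for Cps1 in rapamycin total RNA (0.34, 0.0616) and none for Nags in DMSO polysome RNA (-0.42, 0.174). Numbers 1 and 2 alone gave none for Ass1 in DMSO polysome (0.13, 0.368), rapamycin polysome (0.10, 0.509) or rapamycin total RNA (0.25, 0.0798), none for Otc in DMSO total RNA (0.49, 0.0622), and a call for Asl in DMSO polysome RNA (-1.22, 1.81e-06). Ass1 in polysome RNA was also lost with no filter, no trend or the compared arrays alone, in DMSO (0.0591 to 0.11) and rapamycin livers (0.0594 to 0.121). Fitted on the compared arrays alone, Otc in DMSO polysome RNA (0.0982) and Asl in DMSO total RNA (0.0917) were lost, and with loess Nags in DMSO polysome RNA (-0.44, 0.08). With the liver as a random block Slc25a15 in DMSO polysome RNA became called (-0.68, 0.0332).

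**Figure D3:**
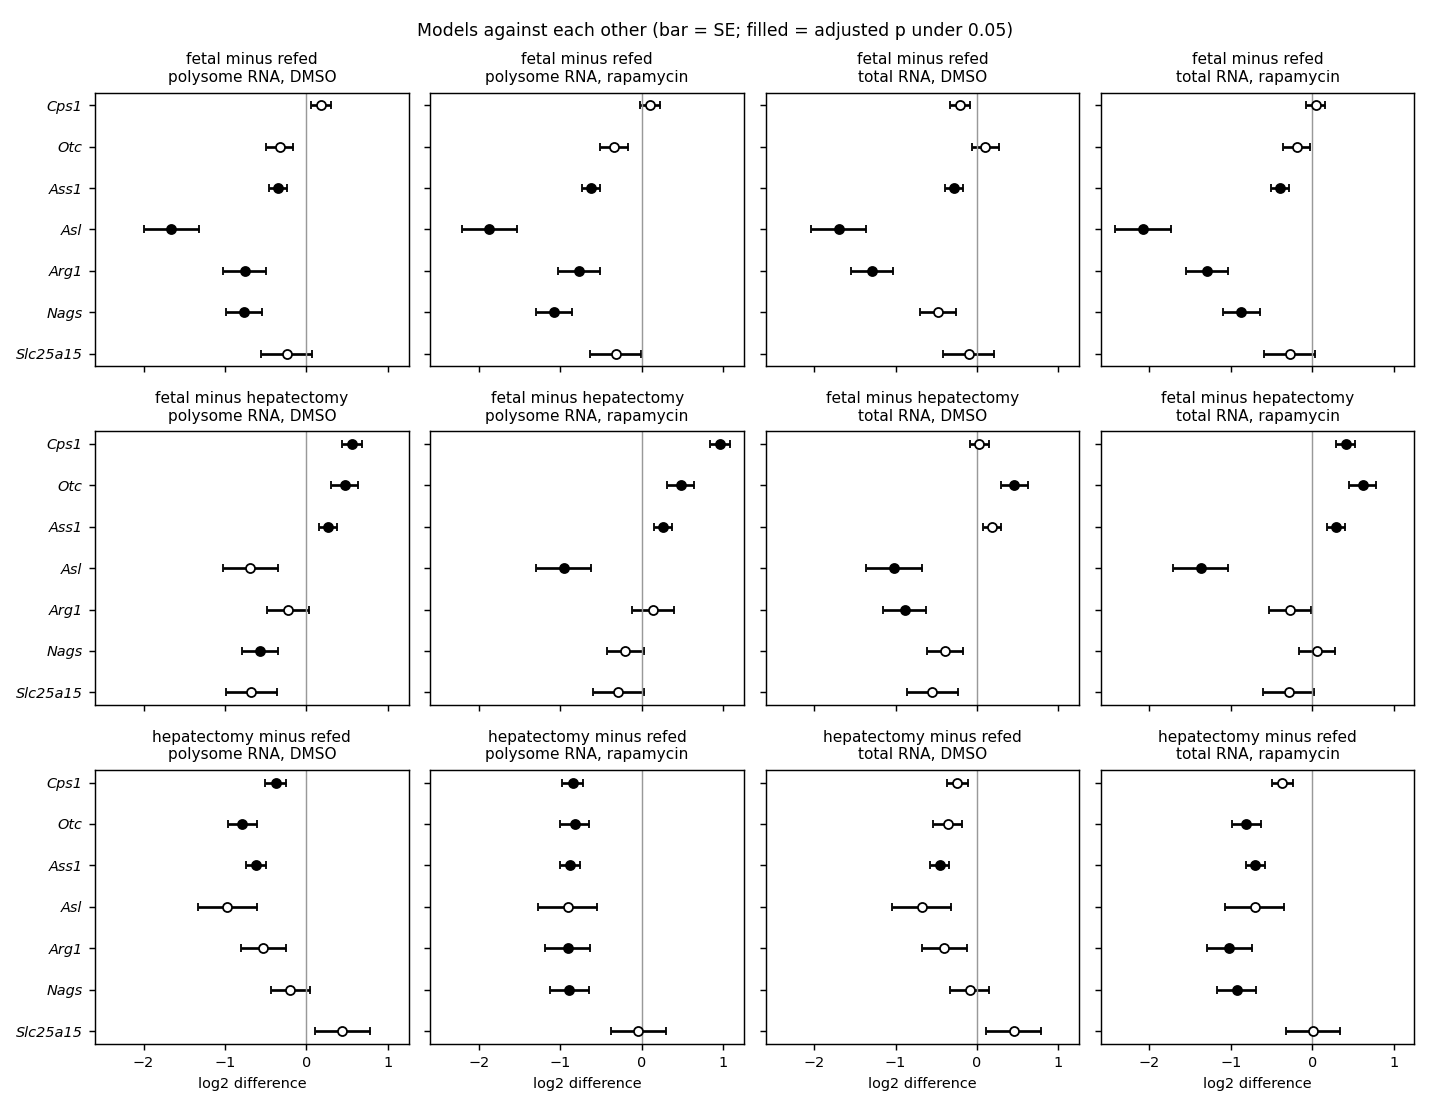
Log2 difference of each member (x axis; bars are SE, filled points have adjusted p under 0.05) between the models, in polysome and total RNA of DMSO and rapamycin livers. In the upper row Asl lies between -2.08 and -1.66 and Cps1 between -0.21 and 0.18, in the middle row Cps1, Otc and Ass1 lie above 0 and Asl below it, and in the lower row Slc25a15 lies between -0.04 and 0.45 and the others below 0.

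Against refed livers the members called after hepatectomy were all lower. Cps1, Otc and Ass1 were lower in polysome RNA of DMSO livers (3 of 7, with 12.7% of all rows called, 4.83% downwards), and Ass1 alone in total RNA (1 of 7, 17.5% of all rows, 5.03% downwards). With rapamycin the calls were 5 of 7 in polysome RNA (all but Asl and Slc25a15, with 9.29% of all rows called, 4.1% downwards) and 4 of 7 in total RNA (Otc, Ass1, Arg1 and Nags, with 6.47%, 2.58% downwards), all down. Of all rows 7.86%, 12.4%, 5.19% and 3.9% were called higher (polysome and total RNA of DMSO livers, then of rapamycin livers). The median member differed by -0.53 and -0.36 in polysome and total RNA of DMSO livers and by -0.88 and -0.71 in those with rapamycin, against -0.03 to 0.02 over all rows tested.

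Otc was lower in polysome RNA: 12.09, 11.97 and 11.79 in refed and 11.59, 11.27 and 10.61 in hepatectomy DMSO livers, without overlap, like 31.2% of all rows (difference -0.79, SE 0.178, adjusted p = 0.00194). Ass1 went from 14.02, 13.95 and 13.86 to 13.38, 13.48 and 13.12, a difference of -0.62 (SE 0.119, adjusted p = 0.000343), and in total RNA it differed by -0.46 (SE 0.119, adjusted p = 0.0072). Cps1 differed by -0.38 (SE 0.127, adjusted p = 0.0435) in polysome RNA of DMSO livers and by -0.85 (SE 0.127, adjusted p = 1.6e-05) in that of rapamycin livers. In polysome RNA of DMSO livers refed liver 3, at 13.19, lay inside the hepatectomy range of 12.93 to 13.37.

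Asl was lower in every hepatectomy array than in any refed array of its fraction and treatment, yet was not called. Ranges did not overlap for 31.2% and 27.3% of all rows in polysome and total RNA of DMSO livers. With rapamycin the shares were 39.8% and 30.8%. In polysome RNA of DMSO livers the values were 12.70, 12.71 and 12.13 against 11.63, 11.53 and 11.49, a difference of -0.97 (SE 0.363, adjusted p = 0.0785). The SE pools the spread of all 40 arrays, fetal pairs included. Fitted on the arrays of those 2 groups alone the adjusted p was 0.00942, and in polysome and total RNA of rapamycin livers it was 0.00267 and 0.0132. Arg1 and Nags were called with rapamycin: Arg1 at -0.91 in polysome and -1.02 in total RNA (SE 0.277, adjusted p = 0.0335 and 0.0195), Nags at -0.89 and -0.93 (SE 0.239, adjusted p = 0.014 and 0.0126). In DMSO livers Nags differed by -0.20 (-0.69 to 0.28) and -0.09 (-0.58 to 0.39). Slc25a15 was the member that was not lower, at 0.44 and 0.45 in DMSO livers (adjusted p = 0.458 and 0.39) and -0.04 and 0.01 with rapamycin.

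Fitted on the 2 groups alone, the polysome calls of Cps1 (adjusted p = 0.206) and Otc (0.0815) in DMSO livers were lost. Leaving out single arrays removed that of Cps1 (refed 1 or 2, hepatectomy 1 or 3, up to 0.284) and of Otc (hepatectomy 3, -0.52, 0.0532), and in total RNA that of Ass1 (hepatectomy 3, 0.0516), while Otc in total RNA became called without refed array 3 (-0.59, 0.0301). In rapamycin polysome RNA Arg1 was lost without any of 5 arrays (all but refed 2, up to 0.128) and Nags without refed array 1 or 3 or hepatectomy array 1 (up to 0.0696), and in rapamycin total RNA Arg1 was lost without refed array 2 or 3 or hepatectomy array 1 or 3 (up to 0.0881) and Nags without refed array 3 (0.0519) or hepatectomy array 1 (0.0821). Cps1 in DMSO polysome RNA was also lost with loess, no filter, no trend or the liver as a random block (0.058 to 0.0835), and that block made Asl a call there (0.04). No single array removed the polysome calls of Ass1.

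Of 27 tested breakdown enzymes 13 were called lower after hepatectomy in polysome RNA of DMSO livers and none higher (median -0.58), against 4.83% of all rows called lower. In total RNA 8 of 27 were called lower and none higher, against 5.03%. Sds, serine dehydratase, differed by -3.53 (SE 0.411, adjusted p = 7.35e-08), Kmo, a kynurenine hydroxylase, by -1.61, Ftcd of histidine breakdown by -1.80 and Ahcy of methionine breakdown by -0.82. In the supply list 4 of 20 were lower and 1 higher in polysome RNA, where 7.86% of all rows were called higher: the liver glutaminase Gls2 (-1.88, SE 0.395, adjusted p = 0.000955) and the transaminases Got1 (-1.08) and Gpt (adjusted p = 6.62e-05) were lower, and the arginine and lysine transporter subunit Slc7a7 higher (1.08). Of the 12 regulators 1 was called there, the hepatocyte factor Cebpa (-0.67, SE 0.213, adjusted p = 0.0322). The refed rats had eaten for 3 h after a fast, and no fast is described for the hepatectomy rats; the part of feeding in these differences was not tested.

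With rapamycin no member was called by limma in refed or fetal livers, in either fraction, where 0% of all rows were called. Among the members, 1 had an unadjusted p under 0.05, Ass1 in fetal polysome RNA (0.0129). After hepatectomy all 7 members lay below 0 in both fractions, but only Nags was called, in each fraction (1 of 7 each, with 6.35% of all rows called in polysome RNA, 4.1% downwards, and 5.01% in total RNA, 3.54% downwards). The median member differed by -0.30 in polysome and -0.27 in total RNA, against -0.01 over all rows in both. The fractions were taken to come from the same livers and so are not counted as independent.

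Nags, the activator-making step, stood at 11.31, 11.68 and 11.45 with DMSO and 10.73, 10.91 and 11.01 with rapamycin in polysome RNA, and at 11.20, 11.28 and 11.11 against 10.39, 10.63 and 10.77 in total RNA. The ranges were apart in both fractions, as were those of 26.9% and 30.8% of all rows. The difference was -0.59 (SE 0.123, adjusted p = 0.0253) and -0.60 (SE 0.123, adjusted p = 0.0257), each 1.51-fold. Cps1 differed by -0.42 in polysome (SE 0.119, adjusted p = 0.0572) and -0.32 in total RNA (adjusted p = 0.134), and Arg1 by -0.36 (0.194) and -0.51 (0.0913). Ass1 differed by -0.30 and -0.27, Asl by -0.17 and -0.09, Slc25a15 by -0.22 and -0.09, and Otc by -0.01 and -0.26, none of them called. The Nags call was lost on the arrays of the 2 groups alone (adjusted p = 0.0565 in polysome, 0.0546 in total RNA) and without DMSO array 2 or 3 or rapamycin array 1 or 3, in polysome (0.0612 to 0.0984) as in total RNA (0.0761 to 0.102), with the difference between -0.68 and -0.49 in those fits. Cps1 in polysome RNA became called without rapamycin array 2 (-0.53, 0.0351) and with loess (-0.41, 0.0481) and Arg1 in total RNA without DMSO array 1 (-0.67, 0.033).

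Other genes around the cycle were called in both directions. Of the breakdown list 3 of 27 were higher and 2 lower in polysome RNA after rapamycin, against 2.26% and 4.1% of all rows. They included Kmo (1.30, SE 0.206, adjusted p = 0.0112) and Mat1a of methionine activation (0.54), both higher, and Cbs of transsulfuration (-0.59) and Tat (-0.46) lower. Of the supply list the transaminase Gpt2 was lower in polysome RNA (-0.87, SE 0.195, adjusted p = 0.0305) and Gls2 narrowly called higher (0.66, adjusted p = 0.0497). Among the regulators the acute-phase factor Cebpb was lower (-0.45, adjusted p = 0.045) and the bile acid receptor Nr1h4 higher (0.41, adjusted p = 0.0477), both narrow calls in polysome RNA. Hepatocyte markers averaged 13.66 to 13.90 with DMSO and 13.86 to 13.90 with rapamycin in polysome RNA, and 13.94 to 13.98 and 14.00 to 14.03 in total RNA. Endothelial markers averaged 9.03 to 9.54 with DMSO and 9.70 to 9.81 with rapamycin in polysome and 9.47 to 9.82 and 10.09 to 10.21 in total RNA (3 of 7 genes called higher in each, against 2.26% and 1.47% of all rows). Stellate cell markers averaged 8.70 to 9.26 with DMSO and 9.29 to 9.43 with rapamycin in polysome RNA (2 of 6 called higher), and 9.40 to 9.70 and 9.82 to 9.98 in total RNA (none of 6 called). In polysome RNA macrophage markers averaged 9.53 to 10.04 and 10.11 to 10.21 (1 of 8 called higher), and lymphocyte markers 8.33 to 8.47 and 8.59 to 8.87 (1 of 3 tested). The part of these cells in the Nags difference was not tested.

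In refed livers Nags differed by 0.09 (-0.58 to 0.76) in polysome and 0.24 (-0.44 to 0.91) in total RNA, and Cps1 by 0.05 (-0.24 to 0.34) and -0.19 (-0.48 to 0.10). In fetal livers Nags differed by -0.22 (-0.62 to 0.17) and -0.16 (-0.55 to 0.24), Cps1 by -0.02 (-0.23 to 0.19) and 0.06 (-0.15 to 0.27), and Asl, with its split pairs, by -0.44 (-1.34 to 0.46) in both. Asl went from 10.26, 10.39, 11.12 and 11.65 with DMSO to 10.05, 10.14, 10.76 and 10.72 with rapamycin in polysome RNA of numbers 1 to 4, lower in each of 4 numbers, as it was in total RNA. Ass1 was also lower in each of 4 numbers in both fractions, though the numbers are not shown to pair DMSO with rapamycin livers. With the replicate number as a block neither was called (Asl adjusted p = 0.647 in polysome and 0.77 in total RNA, Ass1 0.304 and 0.77), nor was any row. After hepatectomy the interval for Nags was -0.86 to -0.33 in polysome and -0.87 to -0.33 in total RNA. It overlapped those of refed and fetal livers in either fraction. Whether the rapamycin difference itself varied between the 3 models was tested with a moderated F-test: no member was called (Nags adjusted p = 1 in polysome and 0.341 in total RNA, Cps1 0.741 and 0.387), and 0.0368% and 0.424% of all rows were. No member's rapamycin difference was called as varying between fractions in any model, nor was any row (0%). The intervals of that difference between fractions were wide for some members, at -1.27 to 1.28 for Asl in fetal and -1.10 to 0.81 for Nags in refed livers.

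**Figure D4:**
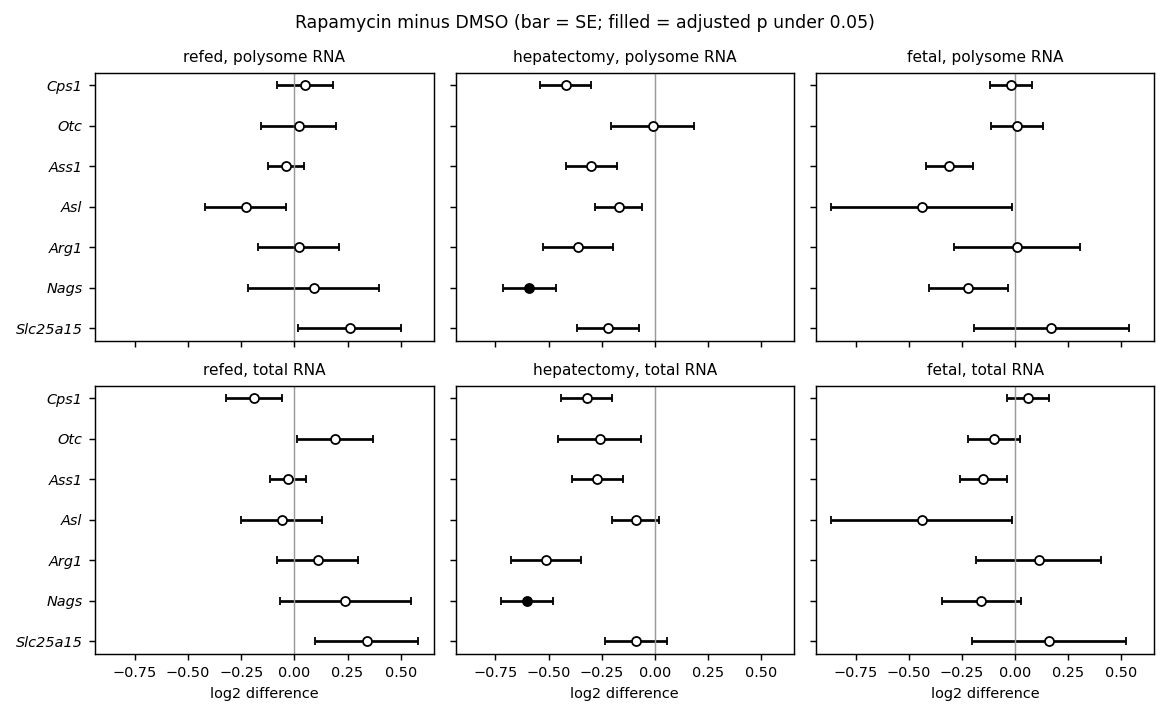
Log2 difference, rapamycin minus DMSO (x axis), of each member in the 3 models, polysome RNA above and total RNA below; bars are SE and filled points have adjusted p under 0.05. All 7 points lie at or below -0.01 after hepatectomy in polysome RNA and Nags alone is filled, at -0.59 and -0.60, while in refed and fetal livers the points fall on both sides of 0.

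Polysome RNA against total RNA of the same group shows which mRNAs were relatively richer on polysomes. In DMSO livers Cps1 was lower on polysomes in both adult models and was not called in the fetus, in which Otc was lower and Arg1 higher. That makes 1 of 7 called in refed (24.7% of all rows, 5.14% downwards), 1 of 7 in hepatectomy (43.8%, 15% downwards) and 2 of 7 in fetal livers (14.5%, 8.1% upwards and 6.38% downwards). Hepatocyte markers were lower on polysomes too, 4 of 12 in refed, 8 of 12 in hepatectomy and 2 of 12 in fetal livers, and their part in the result was not tested. The values are relative, since RMA sets the arrays to a common scale.

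Cps1 in refed livers was 13.73, 13.70 and 13.19 on polysomes and 14.09, 13.90 and 13.93 in total RNA. The ranges were apart, as were those of 36.6% of all rows, and Cps1 differed by -0.44 (SE 0.132, adjusted p = 0.0329). After hepatectomy it was 13.17, 13.37 and 12.93 against 13.66, 13.85 and 13.70, or -0.58 (SE 0.119, adjusted p = 0.00229). There Otc (-0.70, 0.00752) and Nags (0.37, 0.0371) became called without polysome array 1 and Arg1 (0.44, 0.0466) without total array 2. In the fetus it was 13.70, 13.58, 13.67 and 13.90 against 13.72, 13.78, 13.80 and 13.74, or -0.05 (-0.25 to 0.16). The refed call was lost without polysome array 3 (-0.26, adjusted p = 0.079), total array 1 (-0.38, 0.108) or total array 3 (-0.46, 0.0612), with no intensity trend (0.0588) and on the compared arrays alone (0.104), and without liver 3 altogether it was -0.28 (0.0989). Arg1 in the fetus was 11.96, 11.85, 12.14 and 12.41 on polysomes and 10.98, 10.71, 11.41 and 11.46 in total RNA, or 0.95 (SE 0.296, adjusted p = 0.0427), higher in each of 4 livers but called in no fit that left out 1 of the 8 arrays (adjusted p 0.052 to 0.116) nor with no filter on low values (0.0552). Fetal Otc was 11.70, 11.74, 11.40 and 11.65 against 12.11, 12.14, 12.05 and 12.11, or -0.48 (SE 0.122, adjusted p = 0.0158), lower in each liver.

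Polysome and total arrays of a number were taken to come from the same liver, which the titles do not state. On that assumption the fit was repeated with the liver as a block. More was called, among members as among all rows. In refed livers 3 of 7 were called (42.5% of all rows): Cps1, Arg1 (0.41, adjusted p = 0.00768) and Nags (0.39, 0.00989). After hepatectomy 6 of 7 were called (61% of all rows), Cps1 (6.68e-06), Otc (-0.48, 0.00277), Ass1 (-0.23, 0.00622) and Asl (-0.22, 0.0163) lower and Arg1 (0.28, 0.00322) and Nags (0.28, 0.00488) higher. In the fetus the calls stayed at Otc (0.00415) and Arg1 (0.00054), with 28% of all rows. Without the block no member's polysome difference was called as varying between the 3 models (7.44% of all rows), with Cps1 nearest (adjusted p = 0.0846), and with it Cps1 and Arg1 were called (24.7% of all rows).

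**Figure D5:**
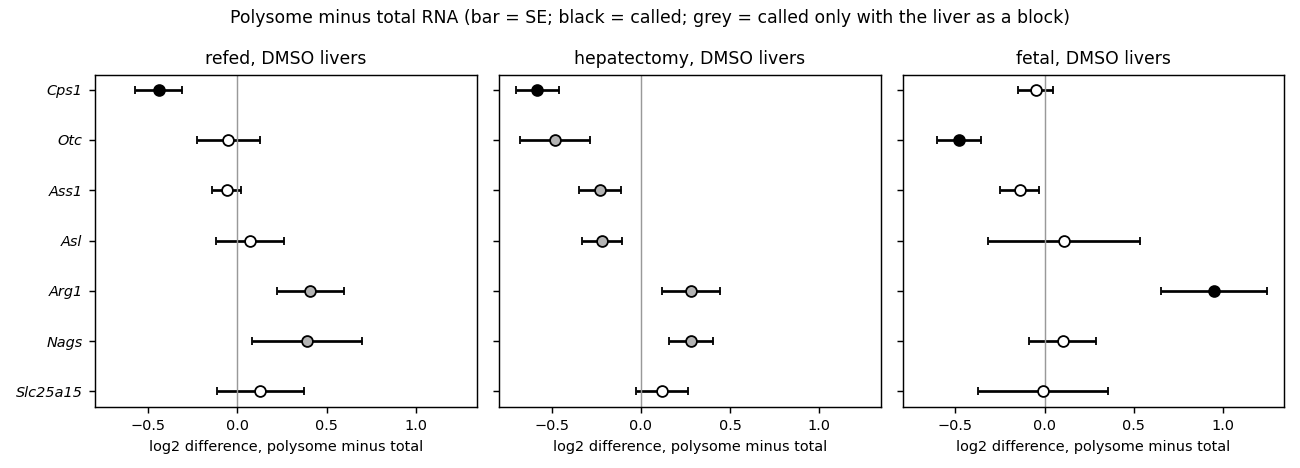
Log2 difference, polysome minus total RNA (x axis), of each member in DMSO livers of the 3 models; bars are SE, black points are called, grey ones only with the liver as a block. Cps1 lies at -0.44 and -0.58 in the adult models and at -0.05 in the fetus, and Arg1 at 0.41, 0.28 and 0.95.

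Over the 12 groups the span between the highest and the lowest group mean was 2.21 for Asl, 1.72 for Arg1, 1.23 for Cps1, 1.17 for Nags, 1.04 for Otc, 0.99 for Ass1 and 0.68 for Slc25a15, with a median of 1.01 over all rows tested. The pooled spread within groups (SD) was 0.47 for Asl and 0.43 for Slc25a15, and 0.15 to 0.36 for the others. Asl, Ass1 and Arg1 had their 4 highest group means in refed livers. For Asl the 4 hepatectomy groups came next, at 11.38 to 11.77, and then the 4 fetal groups, at 10.31 to 10.86. Neighbours in these orders overlapped in range, with 1 exception each in 4 genes: between the refed and hepatectomy groups for Asl, between hepatectomy total RNA with DMSO and fetal polysome RNA with DMSO for Nags, between hepatectomy polysome and total RNA with rapamycin for Arg1, and above the lowest group for Ass1. Arg1 went from 12.86 in refed polysome RNA with rapamycin to 11.14 in fetal total RNA with DMSO, and Nags from 11.77 in the former group to 10.60 in hepatectomy total RNA with rapamycin. Ass1, Cps1 and Otc were all lowest in hepatectomy polysome RNA with rapamycin, at 13.02, 12.74 and 11.15.

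Over the 12 group means Pearson's r was 0.80 between Cps1 and Otc, 0.71 between Cps1 and Ass1 and 0.87 between Otc and Ass1, and 0.75 to 0.87 among Asl, Arg1 and Nags. Between Cps1 and each of Asl, Arg1 and Nags it was -0.03 to 0.02. Otc lay at 0.27, 0.19 and 0.10 with Nags, Asl and Arg1, while Ass1 lay at 0.62, 0.55 and 0.45 with them and so did not stand apart from either set. Slc25a15 was at -0.54 with Cps1 and 0.42 with Asl. Polysome and total groups were taken to share livers, so these points are not counted as independent. The other tested genes with 1 symbol were searched, each by its highest-mean row, without placeholder names (those starting LOC, RGD or MGC). Those whose group means ran closest to the members' mean pattern were Hykk (r = 0.944), Atp6v1h (0.943), Cbln3 (0.933), Nae1 (0.925) and Aox1 (0.924). Nearest to single members were Cc2d1a (0.959) and Hspd1 (0.944) for Cps1, Alas1 (0.947) and Cyp2c23 (0.940) for Otc, Prodh2 (0.948) and Tlr7 (0.937) for Ass1, Pacsin3 (0.976) and Ugdh (0.974) for Asl, Dnaaf5 (0.966) and Psmc3 (0.965) for Arg1, Mtmr14 (0.948) and Gga1 (0.933) for Nags, and Rnf103 (0.938) and Dusp8 (0.929) for Slc25a15. With so many genes searched and only 12 points such values are a description only.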

How the data were processed

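Values are the authors' array intensities, 1 per transcript cluster and array on a linear scale, deposited after RMA (background correction, quantile scaling, probe summary) per the submitters' processing notes. RMA removes differences in total signal between arrays. Its version is not stated in the sources at hand. Log2 was taken without a pseudocount. Precision is limited by the number of arrays. Intensities reached 28447, log2 14.80, and bright members may be compressed, which could not be checked. Rows with 1 symbol in the platform annotation and mean log2 of at least 6.70 (the 30th percentile) were used; rows with several symbols were tested, not named. Limma 3.58.1 in R 4.3.3 (empirical Bayes, intensity trend) was fitted within each model, or on all 40 arrays across models, after tests on simulated data. Tests are two-sided. All members are named, with up to 4 genes per list by smallest adjusted p and the genes most alike in group means. Same-numbered fetal DMSO and rapamycin arrays deviated together (r 0.42 to 0.75). Refed (-0.62 to 0.39) and hepatectomy numbers (-0.07 to 0.28) did not pair. Fetal arrays of different numbers within 1 pair gave r of 0.14 to 0.63, which overlaps 0.42 to 0.75. The fetal values therefore do not tell pairing by number from the split into pairs. Polysome and total arrays of 1 treatment and number deviated together in refed (0.46 to 0.82), hepatectomy (0.51 to 0.72) and fetal livers (0.33 to 0.69). This is the only ground for taking them as 1 liver. In the fetus it is no clear ground, since different numbers of 1 pair reached 0.63. Members and lists were chosen with earlier results of these data known.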

Additional observations from a re-analysis of the deposited data

Results flagged for a closer look

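1 of 28 sets of 4 fetal values had an array far from the others by Dixon's test. Otc in fetal polysome RNA with rapamycin was 11.47 in replicate 4, against a median of 11.68 in the others. Chance flags about 1 in 20 such sets.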

How the results depend on the processing

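No member's called direction reversed under any alternative. Each member has 1 row, so no other row could be tried. Members called after rapamycin in hepatectomy livers numbered 2 in polysome RNA with cyclic loess, 2 in either fraction with the liver as a random block, 4 in either with the replicate block (Cps1, Ass1, Arg1 and Nags; there the numbers do not pair the samples) and 0 in either on the compared arrays alone. The replicate block changed no call in refed or fetal livers. For polysome against total RNA in refed livers they numbered 2 with loess, 0 with no intensity trend, 0 on the compared arrays alone, 2 with the liver as a random and 3 with it as a fixed block, and 0 without liver 3. In hepatectomy livers they were 4 with loess and 6 with either block, in fetal livers 1 with no filter on low values, and between models 1 with loess, 1 with a random and 2 with a fixed block. Fetal against hepatectomy livers gave 2 in DMSO polysome RNA on the compared arrays alone. With fetal livers 3 and 4 alone, chosen after seeing the data like the 2 other left-out sets, it gave 2 there, 1 in DMSO total and 2 in rapamycin total RNA. Fetal against refed livers gave 5 in DMSO total RNA with fetal livers 1 and 2 alone, and hepatectomy against refed 2 in DMSO total RNA without refed liver 3.

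Leaving out 1 array gave 0 to 2 members after rapamycin in hepatectomy livers in either fraction, 0 to 1 for polysome against total RNA in refed, 1 to 3 in hepatectomy and 1 to 1 in fetal livers, and 0 to 1 between models. Fetal against hepatectomy gave 1 to 5 in DMSO polysome, 2 to 4 in rapamycin polysome, 1 to 3 in DMSO total and 3 to 4 in rapamycin total RNA. Hepatectomy against refed gave 1 to 3, 3 to 5, 0 to 2 and 2 to 4 in the same order, and fetal against refed 3 to 4, 3 to 4, 2 to 4 and 4 to 4. Loess moved the share of higher among called rows from 79.2% to 61.1% for polysome against total RNA in refed livers, from 65.8% to 54.5% in hepatectomy and from 55.9% to 45.5% in fetal livers, and from 29.4% to 41.4% for rapamycin in hepatectomy total RNA.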
